A study of Mus musculus with 132 samples.

Results

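The 9 genes described here encode the enzymes that write, copy and remove methyl groups on cytosine in mouse DNA, with their closest cofactors: Dnmt1, Uhrf1, Dnmt3a, Dnmt3b, Dnmt3l, Tet1, Tet2, Tet3 and Tdg. They were taken by name from the 25146 genes of a read count table, which covers 23 RNA libraries of differentiating mouse embryonic stem cells (mESCs). All cells came from the E14-TG2a line, a male stem cell line. Wild-type cells were sequenced undifferentiated at day 0 (2 libraries), as Flk1+ mesoderm sorted at day 4 (3 libraries) and as CD41+ hematopoietic progenitor cells (HPCs) at day 7 (4 libraries). Mesoderm and HPCs were also sequenced from P1-CTCF-KO clones (3 and 3 libraries) and P2-CTCF-KO clones (3 and 5 libraries), in which CRISPR-Cas9 deleted the CTCF site next to the P1 or the P2 promoter of Runx1. None of the 9 genes was edited. On mm9 they lie at chr2:153475184-153513466 (Dnmt3b, plus strand), chr3:133126640-133207354 (Tet2, minus), chr6:83312367-83406386 (Tet3, minus), chr9:20711649-20764332 (Dnmt1, minus), chr10:62267317-62350072 (Tet1, minus), chr10:77505031-77526367 (Dnmt3l, plus), chr10:82092582-82113544 (Tdg, plus), chr12:3806979-3914443 (Dnmt3a, plus) and chr17:56442759-56462909 (Uhrf1, plus). Each mesoderm or HPC group came from 3 clones, and the extra HPC libraries were second libraries of the same clone. The day 0 libraries were labelled technical replicates of 1 culture, so a test against them measures the spread between libraries, not between cultures. The RNA was the fraction without poly(A) tails, counted over exons and introns, so the values reflect mostly unspliced RNA of each gene. In bulk libraries such as these, fewer cells of a type and less RNA per cell cannot be told apart.

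DNA methylation in mammals sits mainly on cytosines that precede a guanine (CpG). Dnmt3a and Dnmt3b set methylation on unmethylated DNA, with Dnmt3l as a partner that has no catalytic activity of its own. Dnmt1 copies the pattern onto the new strand after replication, where Uhrf1 guides it by binding hemimethylated CpG. The Tet enzymes oxidize methylcytosine, and Tdg excises the oxidized bases so that base excision repair can restore an unmodified cytosine. Dnmt3b, Dnmt3l and Tet1 are known for high expression in pluripotent cells, whereas Dnmt3a and Tet2 are best known in blood for their roles in hematopoietic stem cells.

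The start regions of these genes differ in whether ATAC-seq of wild-type mesoderm and HPCs listed a peak. The bases are shown for this reason. All positions are on mm9, the build of the files, and each sequence reads 5′ to 3′ along the gene's own strand, ends before the annotated start and has its CpG dinucleotides in capitals. The first 6 come from peaks: those of Uhrf1 (chr17:56442624-56442743, plus strand), Dnmt1 (chr9:20757318-20757423, minus strand), Tdg (chr10:82092465-82092572, plus strand), Dnmt3a (chr12:3806375-3806469, plus strand) and Tet2 (chr3:133207934-133208040, minus strand) lay in ATAC peaks of HPCs that overlapped a mesoderm peak, and that of Tet1 (chr10:62350141-62350255, minus strand) was a peak in mesoderm with none over it in HPCs. The last covers the 120 bases before the start of Dnmt3b (chr2:153475064-153475183, plus strand), where neither stage had a peak. None of the stretches overlaps an annotated exon of its gene.
Uhrf1: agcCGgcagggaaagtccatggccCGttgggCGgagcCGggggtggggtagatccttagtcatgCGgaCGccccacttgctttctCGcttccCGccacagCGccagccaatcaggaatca
Dnmt1: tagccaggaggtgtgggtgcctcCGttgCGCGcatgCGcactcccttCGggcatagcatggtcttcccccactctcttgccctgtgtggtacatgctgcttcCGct
Tdg: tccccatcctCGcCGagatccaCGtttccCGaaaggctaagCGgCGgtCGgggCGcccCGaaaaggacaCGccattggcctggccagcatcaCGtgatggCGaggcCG
Dnmt3a: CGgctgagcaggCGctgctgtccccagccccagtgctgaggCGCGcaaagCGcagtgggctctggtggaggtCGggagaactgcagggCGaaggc
Tet2: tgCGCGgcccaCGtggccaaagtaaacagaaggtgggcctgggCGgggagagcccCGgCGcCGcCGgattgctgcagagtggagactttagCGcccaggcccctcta
Tet1: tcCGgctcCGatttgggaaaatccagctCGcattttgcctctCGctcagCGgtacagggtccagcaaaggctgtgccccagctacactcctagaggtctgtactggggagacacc
Dnmt3b: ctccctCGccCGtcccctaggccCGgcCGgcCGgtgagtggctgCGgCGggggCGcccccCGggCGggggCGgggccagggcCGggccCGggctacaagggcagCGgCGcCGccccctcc

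These stretches hold 9 CpG in Uhrf1, 6 in Dnmt1, 13 in Tdg, 7 in Dnmt3a, 9 in Tet2, 5 in Tet1 and 16 in Dnmt3b. The Dnmt3b start without a peak therefore held the most CpG of the 7 printed, although the lengths differ from 95 to 120 bases. In the RefSeq promoters (GRCm38.p6, 300 bases each, 32851 in all), which matched all 9 genes with 16 promoters, the median was 7 CpG. The Tet2 promoter held 57 CpG, more than in 99.8% of all promoters. The Dnmt3a promoters held 46, 47 and 18 CpG, and the Dnmt3b promoter 30. The 3 Dnmt3l promoters held 6, 4 and 3 CpG, all below the median of all promoters. The letters TTCCCGC, searched on both strands as a core of E2F sites, were found in 1 of the 16 promoters, that of Uhrf1, and in 4.60% of all promoters.

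Library totals ran from 7805102 to 24406998 counts, but entries of ribosomal RNA or of several loci took 68.1 to 76.3% of them in mESCs and 87.8 to 91.0% in mesoderm and HPCs. The other genes shared 4858658 to 7748566 counts in mESCs and 878966 to 2288976 in mesoderm and HPCs. The study's methods name depletion of ribosomal RNA for mESCs and not for mesoderm or HPCs, so stage and library preparation cannot be told apart in comparisons with mESCs. Levels are given as CPM, the counts scaled to a common library size over all 23 libraries, and 1 CPM stood for 96.2 to 177 counts in mESCs and 4.91 to 24.6 counts elsewhere. The cell labels matched their markers: the summed level of 7 pluripotency genes was 47.6 to 52.5 CPM in mESCs and at most 8.91 CPM elsewhere, with Pou5f1 without a count in every wild-type HPC library. Kdr, which encodes Flk1, was at 16.7 to 37.4 CPM in wild-type mesoderm, and Itga2b, which encodes CD41, at 18.2 to 40.6 CPM in wild-type HPCs against at most 1.19 CPM in wild-type mesoderm. The deleted CTCF sites have no RNA of their own, and Runx1 remained expressed in all knockout groups (2.02 to 164 CPM), so the RNA does not check the genotype labels.

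Along the wild-type course from mESCs to HPCs, the changes called were in the Dnmt3 and Tet genes, and Dnmt1, Uhrf1, Tet2 and Tdg were not called at any wild-type step. Dnmt3b, Dnmt3l and Tet1 fell and Tet3 rose between mESCs and mesoderm, and Tet1 fell and Tet3 rose again between mesoderm and HPCs. Here a call needs an adjusted p under 0.05 (edgeR's quasi-likelihood test, over all genes tested) and a log2 fold change beyond 1 in either direction. Of the 9 genes, 4 were called between mESCs and mesoderm (1 higher, 3 lower), when 24.4% of 12899 genes tested were called (10.7% higher and 13.7% lower, against 11.6 and 8.42% by DESeq2, 20.0% in all). Between mesoderm and HPCs 2 were called (1 higher, 1 lower), when 23.3% of the genes tested were called (10.8% higher, 12.5% lower). Between mESCs and HPCs 5 were called (2 higher, 3 lower), when 41.9% were called (17.0% higher, 25.0% lower). Dnmt3l, among the 3 lower genes in both comparisons with mESCs, passed the filter on low counts only through the mESC libraries. With the 2 mESC libraries, technical replicates of 1 culture, summed to 1 sample, the share of all genes called dropped to 8.69% for mesoderm and 27.3% for HPCs against mESCs, and 4 of the 9 genes were called in each. The median log2 fold change of the 9 genes was -0.21, -0.18 and -0.73 in these comparisons, beside -0.18, -0.01 and -0.24 over all genes tested.

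**Figure D1:**
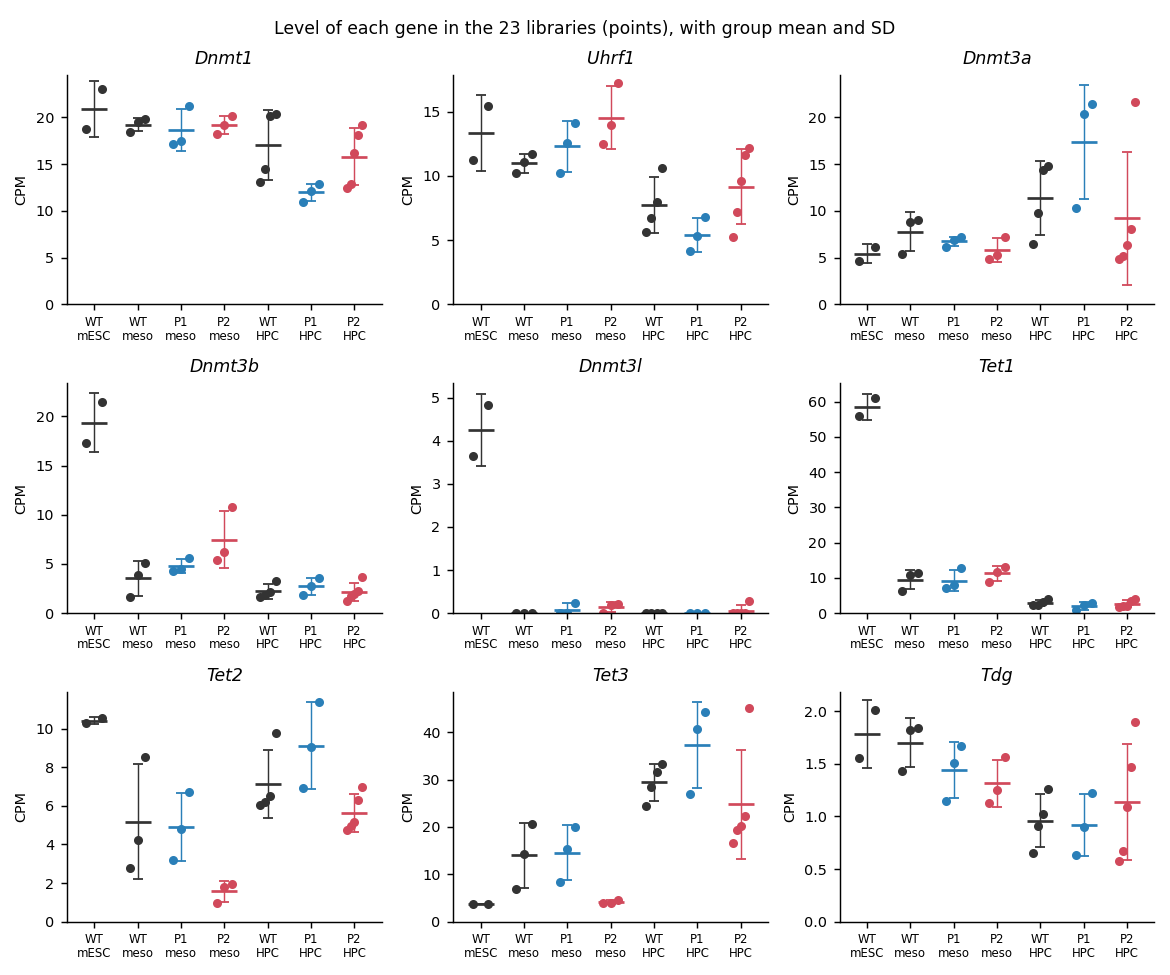
Level of each gene in CPM (y axis, from 0) in every library (points) of the 7 groups (x axis), with the group mean (wide bar) and SD (whiskers), colored by genotype (black, wild type; blue, P1-CTCF-KO; red, P2-CTCF-KO). Tet1 dropped from 58.4 CPM in mESCs to 2.90 CPM in wild-type HPCs while Tet3 went from 3.71 to 29.5 CPM, and Tet2 and Tet3 were lowest in mesoderm in the P2-CTCF-KO libraries.

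Dnmt1, the maintenance methyltransferase, was at 18.8 and 23 CPM in the mESC libraries. In wild-type mesoderm it was at 18.4, 19.5 and 19.8 CPM, and in wild-type HPCs at 14.5, 20.4, 20.2 and 13.1 CPM. The wild-type stages overlapped, and no test between them called the gene (adjusted p = 0.901, 0.564 and 0.429). P1-CTCF-KO HPCs were at 11, 12.1 and 12.9 CPM, all below the 17.2, 17.5 and 21.2 CPM of P1-CTCF-KO mesoderm (log2 fold change -0.66 ± 0.21 SE, adjusted p = 0.0155, below the limit on the fold change).

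Uhrf1, the reader of hemimethylated DNA that recruits Dnmt1, was at 11.2 and 15.4 CPM in mESCs and at 10.2, 11.1 and 11.7 CPM in wild-type mesoderm. In wild-type HPCs it was at 6.74, 10.6, 7.95 and 5.6 CPM, below both mESC libraries in every case. The log2 fold change from mESCs to HPCs was -0.73 ± 0.25 (adjusted p = 0.0307), which passed the test but not the limit on the fold change, and from mesoderm to HPCs it was -0.52 ± 0.23 (adjusted p = 0.118). In P1-CTCF-KO clones Uhrf1 was called lower in HPCs (5.30, 4.14 and 6.80 CPM) than in mesoderm (12.6, 10.2 and 14.1 CPM), by -1.21 ± 0.30 (adjusted p = 0.00352). In P2-CTCF-KO clones the difference was -0.67 ± 0.25 (adjusted p = 0.0403).

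Uhrf1 and Dnmt1 are known for expression in cycling cells, and the HPC libraries differed in genes of the cell cycle. The summed level of 12 S phase genes was 31.0 to 65.6 CPM in the 4 wild-type HPC libraries, 26.1 to 37.0 CPM in the P1-CTCF-KO and 29.7 to 76.3 CPM in the P2-CTCF-KO HPC libraries, against 52.5 to 73.2 CPM in all mesoderm libraries. In wild-type HPCs, Uhrf1 was highest in the library with the highest S phase sum and lowest in the library with the lowest. The knockouts did not repeat this order in full. In P1-CTCF-KO HPCs the library with the highest sum (37.0 CPM, clone E7.2) had the lowest Uhrf1 (4.14 CPM). In P2-CTCF-KO HPCs the library with the highest sum (76.3 CPM) had 11.6 CPM of Uhrf1, below the 12.2 CPM of clone E9.1 (sum 67.5 CPM). The library with the lowest sum there (29.7 CPM) had the lowest Uhrf1 (5.27 CPM). The part of cycling in the Uhrf1 levels was not tested.

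Dnmt3a, a de novo methyltransferase, had the least RNA per length of the 3 Dnmt3 genes in mESCs, at 4.70 and 6.16 CPM. Its wild-type mesoderm libraries were at 9.06, 5.35 and 8.87 CPM and its wild-type HPC libraries at 14.4, 6.48, 9.80 and 14.8 CPM. Every wild-type HPC library was above both mESC libraries, and HPCs and mesoderm overlapped. Dnmt3a was called higher in HPCs than in mESCs (1.15 ± 0.35, adjusted p = 0.0175). That call was lost with the mESC libraries summed to 1 sample (adjusted p = 0.0916), with all 23 libraries in 1 fit (adjusted p = 0.0562), without either mESC library (adjusted p = 0.151 and 0.0694) and, through the limit on the fold change, without the HPC library of clone C8.1 (0.997). The step from mESCs to mesoderm was 0.60 ± 0.36 (adjusted p = 0.227) and that from mesoderm to HPCs 0.54 ± 0.30 (adjusted p = 0.216).

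Dnmt3b, the de novo methyltransferase with the highest level of its family in mESCs, was at 17.3 and 21.5 CPM there. It was at 1.61, 5.11 and 3.87 CPM in wild-type mesoderm and at 1.62, 1.81, 2.13 and 3.30 CPM in wild-type HPCs. All differentiated wild-type libraries were therefore below mESCs, 5.49-fold on average in mesoderm and 8.74-fold in HPCs. Dnmt3b fell by 2.43 ± 0.39 on the log2 scale between mESCs and mesoderm (adjusted p = 0.00121) and by 3.04 ± 0.37 between mESCs and HPCs (adjusted p = 7.68e-05). Mesoderm and HPCs overlapped in the wild type (-0.61 ± 0.37, adjusted p = 0.255).

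Dnmt3l, the cofactor of the de novo enzymes, was seen almost only in mESCs, with 646 and 466 counts (3.65 and 4.84 CPM). No count fell on it in the 3 wild-type mesoderm or the 4 wild-type HPC libraries. With a floor of 3 counts per library, its level was at least 11.6-fold lower in wild-type mesoderm and at least 10.9-fold lower in wild-type HPCs. Both tests against mESCs called it (adjusted p = 0.000446 and 0.000113). Dnmt3l passed the filter on low counts of that fit only through the mESC libraries, so these tests could only come out lower and add nothing to the counts. Among the knockouts, 6 counts were found in 1 P1-CTCF-KO mesoderm library, 3 and 2 counts in 2 P2-CTCF-KO mesoderm libraries and 4 counts in 1 P2-CTCF-KO HPC library. These are at or near the floor, and Dnmt3l was too low for the tests among mesoderm and HPC libraries of different genotypes. Such floors cover counting error only.

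Tet1, the dioxygenase that marks mESCs, was the member with the most RNA per length there, at 55.8 and 61.1 CPM. It was at 6.31, 10.7 and 11.4 CPM in wild-type mesoderm and at 2.13, 2.33, 3.10 and 4.04 CPM in wild-type HPCs, so that the stages did not overlap at either step. Tet1 fell by 2.56 ± 0.30 on the log2 scale from mESCs to mesoderm (adjusted p = 0.00024) and by 1.69 ± 0.28 from mesoderm to HPCs (adjusted p = 0.000938). From mESCs to HPCs the mean level was 20.1-fold lower (-4.25 ± 0.30, adjusted p = 2.69e-06).

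Tet2 did not follow Tet1. It was at 10.3 and 10.5 CPM in mESCs, at 8.54, 2.80 and 4.22 CPM in wild-type mesoderm and at 6.06, 6.22, 6.5 and 9.81 CPM in wild-type HPCs. Both mESC libraries were above every other wild-type library, but no wild-type step was called (mESCs to mesoderm -0.90 ± 0.38, adjusted p = 0.095, mesoderm to HPCs 0.43 ± 0.34, adjusted p = 0.384). Without the mesoderm library of clone B9.3, which held the highest level of that stage, the step from mESCs to mesoderm passed (-1.45, adjusted p = 0.00588), and so it did without a filter on low counts (-1.02, adjusted p = 0.0191), where 20.7% of all genes were called.

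Tet3, the third family member, was at 3.78 and 3.65 CPM in mESCs. It was at 20.7, 6.93 and 14.3 CPM in wild-type mesoderm and at 31.7, 24.4, 28.5 and 33.3 CPM in wild-type HPCs, again without overlap between stages. Tet3 rose by 2.00 ± 0.38 on the log2 scale from mESCs to mesoderm (adjusted p = 0.00318) and by 1.06 ± 0.31 from mesoderm to HPCs (adjusted p = 0.0232). The first call was lost without mESC library 2 (adjusted p = 0.0511). The second was lost without the mesoderm library of clone C8.1 (adjusted p = 0.0686), the HPC library of C8.1 (adjusted p = 0.0534) or the mesoderm library of C6.1, where the fold change was 0.75. From mESCs to HPCs the mean was 7.94-fold higher (3.06 ± 0.39, adjusted p = 0.000104).

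Tdg, the glycosylase that removes oxidized methylcytosine, was the least counted of the 9 genes beside Dnmt3l, with 5 to 41 counts per library outside mESCs. It was at 1.56 and 2.02 CPM in mESCs, at 1.43, 1.82 and 1.84 CPM in wild-type mesoderm and at 1.02, 0.648, 1.26 and 0.907 CPM in wild-type HPCs, each HPC library below every mESC and mesoderm library. The difference between mESCs and HPCs was -0.80 ± 0.30 (adjusted p = 0.0438, below the limit on the fold change) and that between mesoderm and HPCs -0.80 ± 0.30 (adjusted p = 0.0715). The count table holds an entry Tdg-ps2 on the same strand over 97.5% of Tdg, with 769 counts against 797 for Tdg in all libraries, so the counts of the 2 entries are nearly the same reads and the Tdg level is uncertain to that extent. For Tet3, by contrast, the opposite-strand entry B230319C09Rik over 6.99% of the gene had 6 counts where that share of Tet3 would be 418. Another opposite-strand entry, Hrh1, is listed with a span of 112099078 bases that takes in all of Tet3, and held 8608923 counts against 5988 for Tet3. Where in that span its counts lie is not given in the table, so its part in the Tet3 level was not tested.

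**Figure D2:**
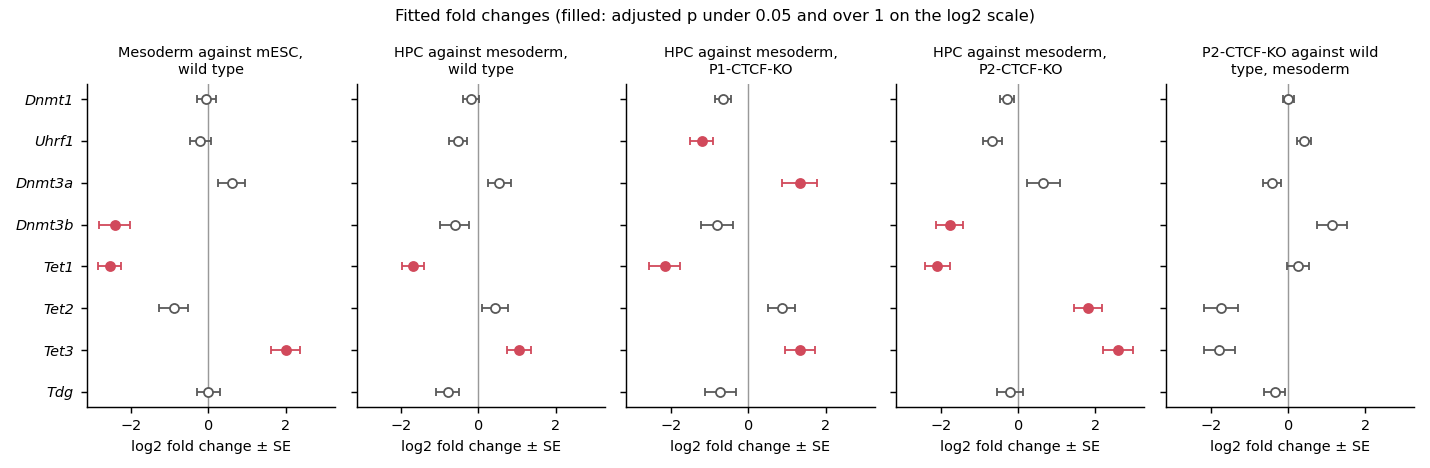
Fitted log2 fold change (x axis) with its SE for 8 genes (y axis) in 5 comparisons, with filled red points for called genes. Dnmt3l is left out because its fitted value against libraries without counts is no measure of size. Tet1 lay left of 0 and Tet3 right of 0 in all 4 stage comparisons, and none of the 8 genes was called for P2-CTCF-KO against the wild type.

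Compared per length of gene span (CPM per kb), which allows genes to be set beside each other, the order of the 9 genes changed with the stage. In mESCs Tet1 led with 0.706 ± 0.045 CPM per kb (SD, n = 2), followed by Uhrf1 (0.661 ± 0.148) and Dnmt3b (0.506 ± 0.078), and Dnmt3a (0.0505 ± 0.0096) and Tet3 (0.0395 ± 0.0010) were last. The ranges of Tet1 and Uhrf1 were within their SD of each other. In wild-type mesoderm Uhrf1 (0.545 ± 0.036, n = 3) and Dnmt1 (0.365 ± 0.014) led, and the other genes with counts lay between 0.0643 and 0.149 CPM per kb with SDs that overlapped between neighbours. In wild-type HPCs Uhrf1 (0.384 ± 0.107, n = 4), Dnmt1 (0.323 ± 0.072) and Tet3 (0.313 ± 0.042) were within their SD of one another, Dnmt3a followed with 0.106 ± 0.037, and Tet1, first in mESCs, was the lowest gene with counts (0.0351 ± 0.0105).

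Within the Tet family, Tet1 made up 80.7% ± 0.89 of the summed CPM per kb in mESCs, 37.9% ± 17.9 in wild-type mesoderm and 7.96% ± 1.53 in wild-type HPCs. Tet3 went from 4.52% ± 0.35 to 43.4% ± 11.9 and 71.9% ± 3.89, while Tet2 was at 14.8% ± 0.53, 18.7% ± 6.58 and 20.1% ± 2.59. The sum itself was 0.875 ± 0.046 CPM per kb in mESCs, 0.327 ± 0.083 in wild-type mesoderm and 0.437 ± 0.066 in wild-type HPCs. Within the Dnmt3 genes, Dnmt3b made up 67.0% ± 0.96 and Dnmt3l 26.3% ± 0.81 in mESCs, and Dnmt3a went from 6.68% ± 0.15 to 46.3% ± 19.8 in wild-type mesoderm and 63.9% ± 8.54 in wild-type HPCs. The summed Dnmt3 level dropped from 0.756 ± 0.127 to 0.164 ± 0.033 CPM per kb by mesoderm and was 0.164 ± 0.049 in HPCs.

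**Figure D3:**
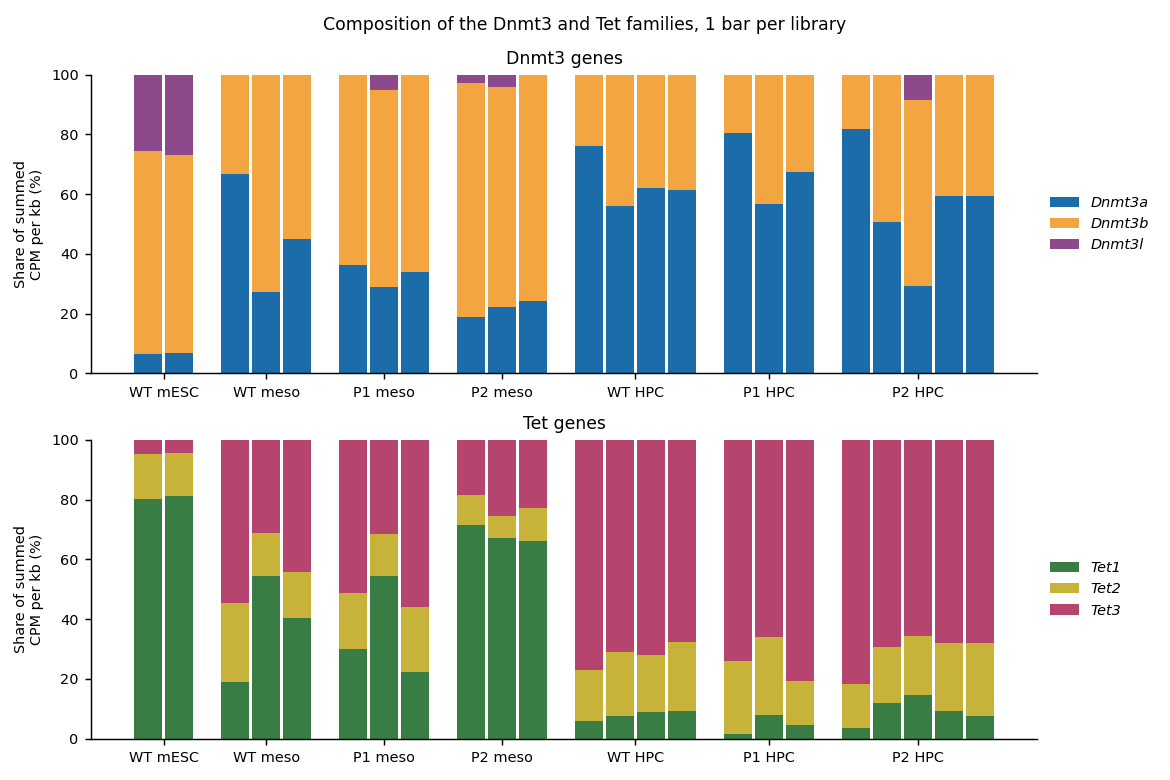
Share of each gene in the summed CPM per kb of the Dnmt3 genes (top) and the Tet genes (bottom), in percent (y axis), with 1 stacked bar for each of the 23 libraries grouped by genotype and stage (x axis). Tet1 took 80.1 to 81.3% of the Tet sum in mESCs and 1.68 to 14.8% in HPCs, and in the 3 P2-CTCF-KO mesoderm libraries it took 66.0 to 71.5% against 18.9 to 54.4% in the other 6.

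Ratios of 2 genes within a library do not depend on the scaling between libraries. The log2 ratio of Tet2 to Tet1 counts was -2.49 ± 0.07 in mESCs, -0.97 ± 1.24 in wild-type mesoderm and 1.30 ± 0.19 in wild-type HPCs, and mesoderm and HPCs did not overlap in any genotype. The difference between HPCs and mesoderm was 2.27 in the wild type (exact permutation test, 2-sided, p = 0.0571), 3.20 in P1-CTCF-KO (exact p = 0.1) and 4.02 in P2-CTCF-KO clones (exact p = 0.0357), each the smallest p that the group sizes allow. The log2 ratio of Dnmt3a to Dnmt3b was -1.84 ± 0.05 in mESCs, 1.24 ± 1.21 in wild-type mesoderm and 2.31 ± 0.57 in wild-type HPCs. It was 1.07 higher in HPCs than in mesoderm in the wild type, where the libraries overlapped (exact p = 0.229), 2.11 higher in P1-CTCF-KO (exact p = 0.1) and 2.22 higher in P2-CTCF-KO clones (exact p = 0.0357). The 4 wild-type and 5 P2-CTCF-KO HPC libraries came from 3 clones each, so these tests of both ratios did not measure the spread between clones. With 3 clones against 3, as in P1-CTCF-KO, no exact p could fall below 0.1. Adjusted over the 6 comparisons of libraries, no p was under 0.05 (0.107 to 0.229). The group sizes could not give an adjusted p under 0.05 in any genotype, so the adjusted values decide nothing.

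The knockout clones addressed whether the step from mesoderm to HPCs differs in cells that lack a CTCF site at Runx1. In P1-CTCF-KO clones 4 of 8 members tested were called (2 higher, 2 lower), when 32.6% of 9170 genes tested were called (16.6% higher, 16.1% lower). Tet1 fell by 2.17 ± 0.40 on the log2 scale (adjusted p = 0.000445), from 7.85, 12.7 and 7.01 CPM to 0.815, 2.91 and 2.27 CPM. Tet3 rose by 1.33 ± 0.39 (adjusted p = 0.0109), from 15.3, 8.37 and 20.1 CPM to 40.8, 27.0 and 44.2 CPM, and Dnmt3a rose by 1.33 ± 0.46 (adjusted p = 0.0283), from 7.16, 6.91 and 6.16 CPM to 21.4, 10.3 and 20.4 CPM. The Dnmt3a call was lost without any of 5 of the 6 libraries, all but the HPC library of clone E7.2 (adjusted p up to 0.0891), and the Tet3 call without the mesoderm library of E7.2 (adjusted p = 0.0595). Uhrf1 was the other gene called lower. Without the mesoderm library of E7.2, 2 of these 4 calls were left. Without that of E9.1, Tet2 was called higher in HPCs (1.19, adjusted p = 0.0286, against 0.86 ± 0.36, adjusted p = 0.0624, with it).

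In P2-CTCF-KO clones 4 of 8 members tested were called at this step (2 higher, 2 lower), when 28.2% of the genes tested were called (16.5% higher, 11.7% lower). Tet3 rose by 2.59 ± 0.39 on the log2 scale (adjusted p = 6.79e-05), from 3.83, 3.86 and 4.54 CPM in mesoderm to between 16.6 and 45.1 CPM in HPCs. Tet2 rose by 1.81 ± 0.36 (adjusted p = 0.000713), from 1.81, 0.941 and 1.94 CPM to between 4.75 and 6.99 CPM. Tet1 fell by 2.1 ± 0.33 (adjusted p = 8.88e-05), from 13.1, 8.94 and 11.6 CPM to between 1.72 and 3.84 CPM, and Dnmt3b fell by 1.77 ± 0.35 (adjusted p = 0.000751), from 10.8, 6.21 and 5.36 CPM to between 1.27 and 3.63 CPM. Mesoderm and HPC libraries did not overlap for these genes, nor for Uhrf1, which was not called. The share of all genes without overlap at this step is not given, so the separation adds nothing to the calls. No member's step differed from that of the wild type by an interaction test, for P1-CTCF-KO (no gene called of 9170, 0.0%, with 306 genes at an unadjusted p under 0.05 and 0 called by DESeq2) or for P2-CTCF-KO (0.0218% called, 0.36% by DESeq2). The differences nearest to the threshold were those of P2-CTCF-KO against wild type for Tet3 (1.55 ± 0.51, adjusted p = 0.396) and Tet2 (1.41 ± 0.48, adjusted p = 0.433). The P2-CTCF-KO and P1-CTCF-KO interactions share the wild-type libraries.

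Between genotypes in mesoderm, no member was called in any of the 3 comparisons, and the values furthest from the wild type were those of Tet2, Tet3 and Dnmt3b in P2-CTCF-KO mesoderm. The background was also near 0: edgeR called 0.0342% of 8778 genes between P2-CTCF-KO and wild type (3 genes, with 1408 at an unadjusted p under 0.05, against 168 or 2.35% by DESeq2), 0.0% between P2-CTCF-KO and P1-CTCF-KO (987 at an unadjusted p under 0.05, 92 or 1.23% called by DESeq2) and 0.0% between P1-CTCF-KO and wild type (168 at an unadjusted p under 0.05, 0 called by DESeq2). Tet3 was at 3.83, 3.86 and 4.54 CPM in P2-CTCF-KO mesoderm, below each of the 6.93, 14.3 and 20.7 CPM of the wild type (log2 fold change -1.79 ± 0.40, adjusted p = 0.13). Tet2 was at 1.81, 0.941 and 1.94 CPM, below each of the 2.80, 4.22 and 8.54 CPM of the wild type (-1.73 ± 0.45, adjusted p = 0.138). Dnmt3b was at 10.8, 6.21 and 5.36 CPM, above each of the 5.11, 3.87 and 1.61 CPM of the wild type (1.14 ± 0.39, adjusted p = 0.2). Against P1-CTCF-KO mesoderm the differences were -1.83 ± 0.40 for Tet3 (adjusted p = 0.21), -1.62 ± 0.44 for Tet2 (adjusted p = 0.236) and 0.64 ± 0.37 for Dnmt3b (adjusted p = 0.548).

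The calls, but not the fold changes, of these P2-CTCF-KO comparisons depended on the tool. DESeq2 called Tet3 (-1.81, adjusted p = 0.00389) and Tet2 (-1.76, adjusted p = 0.0211) lower than in the wild type, and Tet3 lower than in P1-CTCF-KO (-1.85, adjusted p = 0.00492). edgeR without a filter on low counts called Tet3, Tet2 and Dnmt3b against the wild type (2.49% of all genes called) and Tet3 and Tet2 against P1-CTCF-KO (1.54% called), and edgeR without wild-type clone C6.1 called Tet3 (adjusted p = 0.0282).

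Markers of endothelial cells moved with Tet2 and Tet3 among the mesoderm libraries. Their summed level over 6 genes was 2.68 to 79.0 CPM in wild-type, 5.24 to 48.2 CPM in P1-CTCF-KO and 0.626 to 1.22 CPM in P2-CTCF-KO mesoderm. Ordered by Tet3, the 9 mesoderm libraries had endothelial sums of 79.0, 48.2, 20.7, 9.16, 5.24, 2.68, 1.12, 1.22 and 0.626 CPM, so that the order was the same but for the seventh and eighth libraries. Ordered by Tet2, the first 6 libraries were in the order of the endothelial sum as well. The wild-type library of clone B9.3, at the top of all 3 orders, also had the highest Dnmt3a (9.06 CPM) and the lowest Dnmt3b (1.61 CPM) and Tet1 (6.31 CPM) of the 9 mesoderm libraries. Cdh5, which encodes VE-cadherin, was at 27.1 CPM at its highest in wild-type mesoderm and at most 0.298 CPM in P2-CTCF-KO mesoderm. P2-CTCF-KO mesoderm also had the highest sums of the 7 mesoderm markers (72.3 to 108 CPM against 26.1 to 50.6 CPM in the other 6 libraries) and of the pluripotency markers in 2 of 3 libraries (4.54 to 8.91 CPM against 1.43 to 4.75 CPM). The part of these cell types in the Tet2, Tet3 and Dnmt3b values was not tested.

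**Figure D4:**
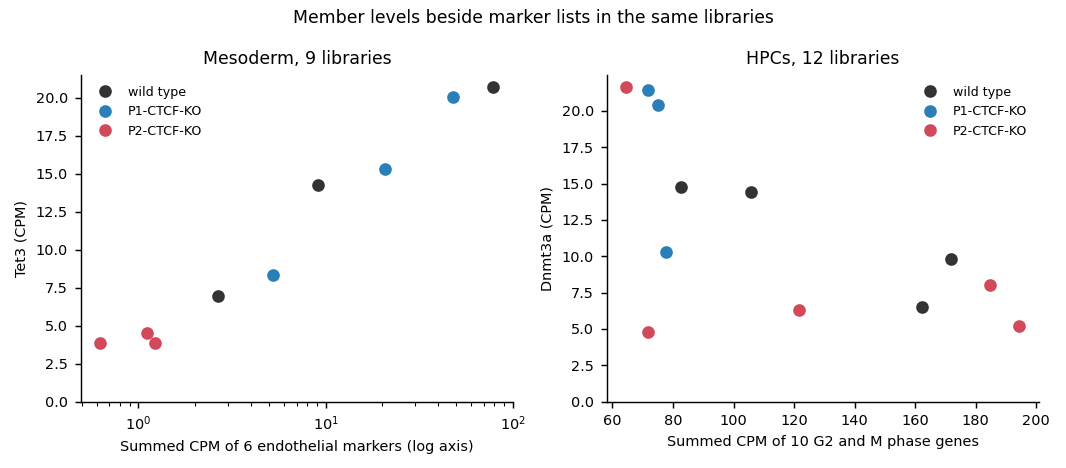
Left, Tet3 (y axis, CPM) beside the summed CPM of 6 endothelial markers (x axis, log scale) in the 9 mesoderm libraries. Right, Dnmt3a (y axis, CPM) beside the summed CPM of 10 G2 and M phase genes (x axis) in the 12 HPC libraries. Points are libraries colored by genotype. The 3 P2-CTCF-KO mesoderm libraries sit lowest on the left, at 3.83 to 4.54 CPM of Tet3, and on the right the 3 HPC libraries above 20 CPM of Dnmt3a have sums of 64.6 to 75.0 CPM, while the library with the lowest Dnmt3a, 4.82 CPM, has a sum of 71.8 CPM.

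Between genotypes in HPCs no member was called either, and edgeR called 0.0% of 7422 genes in each of the 3 comparisons (145 to 650 at an unadjusted p under 0.05, none called by DESeq2). Dnmt3a ranged from 4.82 to 21.7 CPM over 12 libraries. It was at 21.7 CPM in 1 library of P2-CTCF-KO clone D10.1 and at 6.32 CPM in the second library of the same clone, and Tet3 was at 45.1 and 22.4 CPM in the same pair. Wild-type clone B9.3 likewise gave 14.4 and 6.48 CPM of Dnmt3a in its 2 libraries, but P2-CTCF-KO clone D2.1, the other clone with a second library, gave 4.82 and 5.17 CPM. Without that D10.1 library, Dnmt3a was called lower in P2-CTCF-KO than in P1-CTCF-KO HPCs (-1.53, adjusted p = 0.0365, against -0.93 ± 0.48, adjusted p = 0.527, with it). The share of all genes called in that refit is not given, so whether the call is particular to Dnmt3a cannot be told. The first D10.1 library had a summed level of hematopoietic progenitor markers of 257 CPM and of G2 and M phase genes of 64.6 CPM, and the second 117 and 122 CPM. In the pair of B9.3 these sums were 158 and 106 CPM, then 121 and 162 CPM. In the pair of D2.1, where Dnmt3a was nearly the same, they were 75.5 and 71.8 CPM, then 75.6 and 194 CPM. The part of either in the Dnmt3a levels was not tested.

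The other genes of the pathway, from lists chosen with earlier results of these data known, showed where the wild-type stages differed beyond the 9 enzymes. Of 7 partners of maintenance methylation, 1 was called higher and 1 lower from mESCs to mesoderm, close to the 10.7 and 13.7% of all genes. These were Uhrf2, a relative of Uhrf1 (from 4.36 to 9.97 CPM, fitted as 1.26 ± 0.23 on the log2 scale, adjusted p = 0.0025), and Hells, a chromatin remodeler needed for normal methylation (17.0 to 6.71 CPM, -1.28 ± 0.21, adjusted p = 0.00139). From mesoderm to HPCs Cdca7, an activator of Hells, was the member of this list called (lower, 1.60 to 0.801 CPM, -1.03 ± 0.31, adjusted p = 0.0259), beside 12.5% of all genes called lower. From mESCs to HPCs 1 was higher and 3 were lower, beside 17.0 and 25.0% of all genes, counts not far from these shares for 7 genes. The list median was -0.75 beside -0.24 over all genes.

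Of 7 genes that recruit methyltransferases, none was called higher and 1, 2 and 3 were lower from mESCs to mesoderm, from mesoderm to HPCs and from mESCs to HPCs, beside 10.7, 10.8 and 17.0% of all genes called higher and 13.7, 12.5 and 25.0% lower. With 7 genes, such counts are not far from these shares. Zfp57, a zinc finger protein that holds methylation at imprinted loci, fell from 4.91 CPM in mESCs to 0.898 in mesoderm (-2.31 ± 0.46, adjusted p = 0.00411) and 0.104 in HPCs (-2.96 ± 0.69 from mesoderm, adjusted p = 0.00811). The Zfp57 level in HPCs lay below the floor of 3 counts per library (0.247 to 0.389 CPM in wild-type HPCs), so the size of that fall is uncertain. The Zfp57 partner Trim28 fell from 14.7 CPM in mesoderm to 4.20 CPM in HPCs (-1.81 ± 0.23, adjusted p = 0.000177). From mESCs to HPCs 3 of the 7 were lower, the third being Ehmt2, a histone H3 lysine 9 methyltransferase (-1.30 ± 0.25, adjusted p = 0.00145).

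Among readers of methylated CpG, Mbd2 was called higher in HPCs than in mesoderm (4.43 to 9.77 CPM, 1.10 ± 0.29, adjusted p = 0.0149). From mESCs to HPCs Mbd2 was higher (2.00 ± 0.34, adjusted p = 0.000609) and Mbd3 was lower (-1.20 ± 0.37, adjusted p = 0.0183). Of 6 genes that protect DNA from methylation or oppose the Tet enzymes, 5 could be tested. From mESCs to mesoderm 1 was called higher, beside 10.7% of all genes called higher. From mesoderm to HPCs 2 were called lower, and so were 2 from mESCs to HPCs, beside 12.5 and 25.0% of all genes. With 5 genes tested, such counts say little about the list. Kdm2b, which binds unmethylated CpG islands, fell from mesoderm to HPCs (6.64 to 3.24 CPM, -1.03 ± 0.21, adjusted p = 0.00388), and so did Cxxc4, a negative regulator of Tet2 (0.587 to 0.0427 CPM, -3.66 ± 0.87, adjusted p = 0.00889). Cxxc4 had been called higher in mesoderm than in mESCs (2.79 ± 0.59, adjusted p = 0.00578). The Cxxc4 level in HPCs lay below the floor of 3 counts per library (0.247 to 0.389 CPM in wild-type HPCs), so the size of its fall is uncertain. Prdm14, which represses the de novo enzymes in pluripotent cells, was called lower in HPCs than in mESCs (adjusted p = 0.0119), with no count in wild-type HPCs. Its level in mESCs, 0.306 CPM, was itself within the range of that HPC floor. Prdm14 passed the filter on low counts only through the mESC libraries, so this test could only come out lower and adds nothing to the counts.

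Of 18 genes of base excision repair and deamination, 17 could be tested, and those called moved both ways. From mESCs to mesoderm 1 was higher and 3 were lower, beside 10.7 and 13.7% of all genes. From mesoderm to HPCs 2 were higher and 1 was lower, beside 10.8 and 12.5% of all genes. Neil3, a glycosylase, rose at both steps (0.698, 1.72 and 5.02 CPM at the 3 stages, 1.35 ± 0.34 and 1.56 ± 0.29, adjusted p = 0.0126 and 0.00207). Parp1, a sensor of strand breaks, fell from mesoderm to HPCs (9.71 to 3.46 CPM, -1.5 ± 0.26, adjusted p = 0.0012). Gadd45a, a stress-induced gene linked to demethylation, fell from mESCs to mesoderm (-2.69 ± 0.68, adjusted p = 0.013) and rose from mesoderm to HPCs (3.56 ± 0.65, adjusted p = 0.00185). Its mesoderm level of 0.139 CPM lay below the floor of 3 counts per library (0.172 to 0.365 CPM in wild-type mesoderm), so the sizes of both changes are uncertain. From mESCs to HPCs 2 were higher and 6 lower, beside 17.0 and 25.0% of all genes. Among the 6 lower were Apobec2 and Neil1, without a count in wild-type HPCs, and Apobec1, at 0.107 CPM there. Their levels in wild-type mesoderm and HPCs lay below the floor of 3 counts per library. They passed the filter on low counts only through the mESC libraries, so their tests against mESCs could only come out lower. Of 10 genes that supply the methyl donor and the cofactor of the Tet enzymes, none was called higher at any step, and 3, 2 and 4 were lower from mESCs to mesoderm, from mesoderm to HPCs and from mESCs to HPCs, beside 13.7, 12.5 and 25.0% of all genes called lower. Mat2a and Mat2b, subunits of the enzyme that makes S-adenosylmethionine, fell from mESCs to mesoderm (-1.17 ± 0.29 and -1.09 ± 0.26, adjusted p = 0.0134 and 0.00916), as did Ahcy, which clears the product of methyl transfer (-1.82 ± 0.45, adjusted p = 0.0117). Shmt1 and Idh2 were the genes called lower from mesoderm to HPCs (-1.21 ± 0.36 and -1.20 ± 0.33, adjusted p = 0.0278 and 0.0182).

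Genes with patterns most like each member were sought among 7177 genes. The measure was the root mean square difference of centred log2 mean CPM over the 7 groups, with a pseudocount of 0.5. The pseudocount narrows the fold changes of genes at low CPM, such as Dnmt3l and Tdg. Dnmt1 was nearest to Anp32e (0.047) and Hdgfl2 (0.058), and Uhrf1 to Deaf1 (0.051) and Rrm2 (0.064), a subunit of ribonucleotide reductase. Dnmt3a was nearest to Bicd2 (0.096) and Zfand6 (0.105), and Dnmt3b to Emb (0.176) and Snhg3 (0.188). Dnmt3l was nearest to Mybl2 (0.169) and Slc7a7 (0.195), although Mybl2 kept 2.24 CPM in wild-type HPCs, where Dnmt3l had no count. Tet1 had the most distant neighbours, Ajuba (0.273) and Eno1 (0.278), followed by Tet2 with Gab1 (0.206) and Atp11b (0.242). Tet3 was nearest to Ppp1r13b (0.129) and Fut8 (0.177), and Tdg to the overlapping Tdg-ps2 (0.029) and to Fam162a (0.059). Among the members themselves the closest pair was Dnmt1 and Tdg (0.146), and Dnmt3b was the nearest member to both Tet1 (0.617) and Dnmt3l (0.518).

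Open chromatin and CTCF binding at the start sites were read from 1 peak list each, made from merged libraries, so there is no replicate and no test. The ATAC cells were wild type by their labels, although the study's methods describe a reporter line derived from E14-TG2a, with Venus at the 3′ end of Runx1 and an mCherry transgene under the Runx1 +23 enhancer, and CTCF ChIP-seq came from 416B, a mouse hematopoietic progenitor line. Within 1000 bases of an annotated start, 8 of 9 members had an ATAC peak in mesoderm and 7 of 9 in HPCs, beside 58.5 and 39.5% of all 24961 genes and 91.1 and 69.2% of the 10008 expressed genes. For CTCF these were 4 of 9 members (Dnmt1, Dnmt3a, Dnmt3b and Tet3), beside 16.9% of all and 25.3% of expressed genes. The lists differ in size, with 76766 peaks in mesoderm and 29037 in HPCs, so that a peak found in mesoderm alone and the difference between the lists cannot be told apart.

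Peaks of Uhrf1, Tdg, Dnmt3a and Tet2 lay within 1000 bases of the first annotated start in both stages and hold the stretches printed above. At Dnmt1 and Tet3 the peaks lay at a start inside the gene span of the table, centred 6954 and 14730 bases after its first base in mesoderm, and no ATAC peak lay at the first base itself. The Tet1 start carried 2 mesoderm peaks, centred 126 bases before it and 346 bases after it (chr10:62349678-62349773), and neither overlapped an HPC peak. A peak at an internal Tet1 start (chr10:62328013-62328286) overlapped one in HPCs (chr10:62328153-62328226), the only HPC peak found at Tet1 among 7 in mesoderm. Dnmt3b had 2 mesoderm peaks, both in introns (chr2:153486443-153486666 and chr2:153494627-153494692), the second within 1000 bases of an internal start and over a CTCF peak, and none in HPCs. Dnmt3l had 1 mesoderm peak, in an intron 1280 bases after its start (chr10:77506281-77506344) and over a CTCF peak, and none in HPCs.

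Tet2 was the member with more peaks in HPCs (6) than in mesoderm (3), of which 3 HPC peaks lay within the gene away from its start, in an exon (chr3:133130118-133130244) and in introns (chr3:133133605-133133671 and chr3:133180493-133180559), and overlapped none in mesoderm. Dnmt3a had 3 HPC peaks without a mesoderm peak over them (chr12:3855805-3856043, chr12:3856130-3856243 and chr12:3861794-3861896), the first 2 in an intron and the third over an exon. Tet3 had 1 such peak, in an intron (chr6:83331856-83332107). A CTCF peak in 416B cells covered the printed Dnmt3a stretch (chr12:3806281-3806609), where both stages had an ATAC peak.

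**Figure D5:**
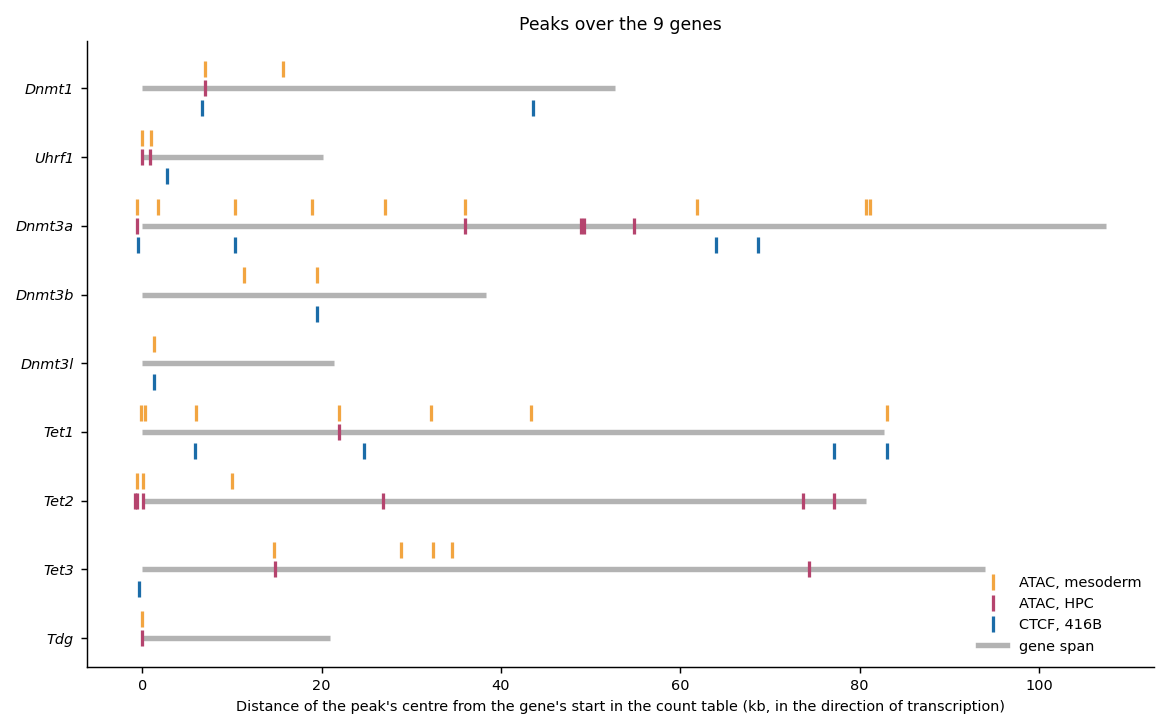
Centres of peaks (ticks) over the 9 genes (y axis; gray bars, span in the count table) by distance in kb from the start in the table along the direction of transcription (x axis), for ATAC in mesoderm (orange, above the bar), ATAC in HPCs (magenta, on the bar) and CTCF in 416B (blue, below the bar). Tet1 shows 7 orange ticks and 1 magenta tick, and Dnmt3b and Dnmt3l show no magenta tick.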

How the data were processed

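The members and the gene lists were chosen with earlier results of these data known. Counts were used as the authors deposited them, made by STAR mapping to mm9, duplicate marking with picard and featureCounts over exons plus introns (annotation and strand setting not given in the sources used here). Peaks, deposited as positions without height or p-value, came from MACS2 after libraries were merged. No deposited column was left out (0 columns of samples not used).

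Tests used edgeR 4.0.16 under R 4.3.3 (TMM, filterByExpr with a minimum count of 10, quasi-likelihood test, Benjamini-Hochberg adjustment over all genes tested). Calls needed both an adjusted p under 0.05 and a fold change beyond 1 on the log2 scale. The SE is the fold change divided by the square root of F. Wild-type stages were fitted on 9 libraries, genotypes on 9 mesoderm or 12 HPC libraries and steps of the knockouts on 21. CPM use TMM over all 23 libraries and can differ from a fit's own scale. Ratios were taken with a pseudocount of 0.5 and tested by exact permutation, and starts came from the table and GENCODE vM1. All 9 members are named, and of each pathway list at most 3 called genes per step, those with the smallest adjusted p. Some further genes are named only because their counts lay below the floor. A result among the readers of methylated CpG is not reported here. For pattern likeness, 2 genes per member were named among genes with a mean CPM of at least 1. The fits were tested on simulated data.

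Every pair of libraries of a group differed beyond sampling noise (chi-square per gene 2.53 to 35.1), so none was merged. The same 9 clones gave mesoderm and HPCs, and clone pairs therefore come from the labels, although deviations of a clone correlated little between stages (r from -0.064 to 0.175 over 10126 genes). Alternatives were DESeq2 1.42.0, other size factors, no filter, no fold limit, fewer entries, all libraries in 1 fit, summed libraries, a clone block and each library left out. The summing of the mESC libraries was chosen after seeing the data.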

Additional observations from a re-analysis of the deposited data

Results flagged for a closer look

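In 17 sets of a gene and a group of 4 or 5 HPC libraries, a library was marked where its gap to the nearest other library exceeded Dixon's 95% critical share of the range, which chance gives in about 1 of 20 sets. Dnmt3a stood apart at 21.7 CPM in the first library of P2-CTCF-KO clone D10.1, and Tet3 stood apart at 45.1 CPM in the same library. Tet2 stood apart at 9.81 CPM in the wild-type library of clone C8.1. Dnmt3l stood apart at 0.279 CPM, which is 4 counts, in the first library of P2-CTCF-KO clone D2.1, the only library of its group with a count. Where every other library is at 0, any count is marked by construction, so the stated chance share does not hold for this set. That D2.1 library also had the highest summed endothelial markers of the HPC libraries, 54.6 CPM. No member's step from mesoderm to HPCs differed between genotypes by the interaction test.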

How the results depend on the processing

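Counts of members called stayed within 1.5 times under most alternatives. In mesoderm, for P2-CTCF-KO set against the wild type, the count went from 0 to 2 with DESeq2 and to 3 without a filter on low counts, while all genes called went from 3 to 168 and 431. Against P1-CTCF-KO mesoderm it went from 0 to 1 and 2, while all genes went from 0 to 92 and 267, and the cause was not tested. For the P2-CTCF-KO interaction all genes went from 2 to 35 with DESeq2 and to 3 without a filter. Leaving out single libraries, the members called ranged from 3 to 5 (mESCs to mesoderm), 1 to 2 (mesoderm to HPCs, wild type), 4 to 5 (mESCs to HPCs), 2 to 4 (P1-CTCF-KO step), 4 to 4 (P2-CTCF-KO step), 0 to 1 (P2-CTCF-KO against wild type, mesoderm, and against P1-CTCF-KO, HPCs) and 0 to 0 for the other genotype and interaction comparisons. The log2 ratio differences ranged from 0.48 to 1.68, 1.68 to 2.49 and 1.79 to 2.6 for Dnmt3a to Dnmt3b and from 1.8 to 2.97, 2.52 to 3.63 and 3.82 to 4.22 for Tet2 to Tet1 (for the wild type, then P1-CTCF-KO, then P2-CTCF-KO). Using only peaks above the list's median width, 4 members in place of 7 had a start peak in HPCs and 2 in place of 4 for CTCF, fewer peaks being used by construction.

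With the clone as a replicate block, pairing mesoderm and HPCs, the members called stayed at 2, 4 and 4 for the steps in the wild type, in P1-CTCF-KO and in P2-CTCF-KO, the ratio differences in P2-CTCF-KO were 2.22 and 4.04, and no call changed. Mesoderm held no second library of a clone, so summing clone libraries gave no value there. From mESCs to mesoderm edgeR called 1386 genes higher and 1761 lower and DESeq2 1577 and 1146, with a median over all genes of -0.18 and -0.04. With the mESC libraries summed, all genes called went to 553 higher and 589 lower (mesoderm) and from 2188 and 3220 to 1555 and 2032 (HPCs). Fold changes smaller than their SE were given no direction. Among fold changes of single members, leaving out 1 library kept 482 on their side of the threshold and moved 13 below it and 4 past it, DESeq2 kept 65 and moved 3 past it, and other size factors kept all 68. Depth limits Dnmt3l and Tdg outside mESCs. Among the genes of the other lists it limits Cxxc4, Zfp57 and Prdm14 in HPCs, Gadd45a in mesoderm, and Apobec1, Apobec2 and Neil1 in both.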
